A study of Mus musculus with 20 samples.

Results

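The aldehyde and alcohol dehydrogenases of mouse Hepa-1 hepatoma cells were read from a table of RNA sequencing counts as 10 genes, 7 aldehyde dehydrogenases (Aldh3a1, Aldh3a2, Aldh1a1, Aldh2, Aldh7a1, Aldh9a1 and Aldh18a1) and 3 alcohol dehydrogenases (Adh7, Adh1 and Adh5). They were taken by gene symbol from the 23373 gene IDs of the table, and all 10 were among the 14343 genes with enough counts to be tested. The family was selected on the measured B[a]P response of control-grown cells, where Aldh3a1 and Adh7 stood far higher after benzo[a]pyrene (B[a]P), a polycyclic aromatic hydrocarbon, than after its solvent DMSO. The B[a]P values of control-grown cells are therefore given as a description, and the tests of the B[a]P response rest on the libraries of cells with a history of hexavalent chromium, Cr(VI). The 10 genes were chosen with earlier results of these data known, so these tests may not be free of that choice.

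Hepa-1 is an established line from a mouse liver tumour. There were 20 libraries in 10 groups of 2. Cr(VI)-grown cells had 20 or 25 passages in medium labelled 0.5 mM Cr(VI), recovered cells had 20 such passages and then 5 without Cr(VI), and control-grown cells had none. Recovered cells were sampled at passage 25 and the other 2 growth histories at passages 20 and 25. Each was then given B[a]P, labelled 5 mM, or DMSO for 8 hours. Both doses are given as labelled, although the title calls the concentrations low. Titles of the later libraries carry 27 where their passage label says 25. The labels do not say whether the 2 libraries of a group came from separate cultures, so p-values measure the spread between these libraries, which may be technical.

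Alcohol dehydrogenases oxidise alcohols, retinol among them, to aldehydes or ketones, and aldehyde dehydrogenases oxidise aldehydes to carboxylic acids, in both cases with a nicotinamide cofactor. The aryl hydrocarbon receptor (AHR), which B[a]P activates, binds DNA with its partner ARNT and raises a set of genes for foreign-compound metabolism known in mice as the Ah gene battery, of which Aldh3a1 is a classical member in Hepa-1 cells. Aldh3a1 oxidises aromatic and medium-chain aldehydes in the cytosol and is otherwise best known from the cornea. Adh7 is the class IV enzyme of stomach and other epithelia, which oxidises ethanol and retinol.

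Close relatives of these genes lie near them. On build GRCm38.p6, the assembly also called mm10, Aldh3a1 spans chr11:61208510-61218418 on the plus strand and Aldh3a2, the microsomal fatty aldehyde dehydrogenase, spans chr11:61223417-61267528 on the minus strand, so that their 3′ ends face each other across 4998 bp. The alcohol dehydrogenase genes stand in 1 row on the plus strand, Adh7 at chr3:138198064-138232042, Adh1 at chr3:138277585-138290698 and Adh5 at chr3:138437200-138455499, with gaps of 45542 and 146501 bp. None of these gene spans overlap. How reads shared by similar genes were counted, and whether strand was used, is not stated in the sources at hand.

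Promoter windows from RefSeq on GRCm38.p6, 250 bases before to 50 after an annotated start, were held for 7 of the 10 genes and used here. Adh7, which moved under B[a]P, its neighbour Adh1, and Aldh3a2 are shown 5′ to 3′ on the gene's own strand, in lower case, with each match to GCGTG or its reverse CACGC, the core of the element bound by AHR and ARNT, in capitals. The windows are chr3:138217523-138217822 (plus strand) for Adh7, chr3:138277335-138277634 (plus strand) for Adh1 and chr11:61267137-61267436 (minus strand) for Aldh3a2.
Adh7: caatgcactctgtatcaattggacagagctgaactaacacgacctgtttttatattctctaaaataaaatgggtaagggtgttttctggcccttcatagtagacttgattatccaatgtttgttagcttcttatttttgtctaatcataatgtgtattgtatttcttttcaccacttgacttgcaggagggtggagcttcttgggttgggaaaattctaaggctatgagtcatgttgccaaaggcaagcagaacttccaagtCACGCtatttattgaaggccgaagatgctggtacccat
Adh1: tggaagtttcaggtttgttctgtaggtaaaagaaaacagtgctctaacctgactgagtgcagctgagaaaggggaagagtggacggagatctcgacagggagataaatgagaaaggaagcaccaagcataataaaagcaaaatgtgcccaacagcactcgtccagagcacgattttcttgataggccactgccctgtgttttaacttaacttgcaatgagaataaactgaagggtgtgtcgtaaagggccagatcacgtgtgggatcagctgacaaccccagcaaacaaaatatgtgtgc
Aldh3a2: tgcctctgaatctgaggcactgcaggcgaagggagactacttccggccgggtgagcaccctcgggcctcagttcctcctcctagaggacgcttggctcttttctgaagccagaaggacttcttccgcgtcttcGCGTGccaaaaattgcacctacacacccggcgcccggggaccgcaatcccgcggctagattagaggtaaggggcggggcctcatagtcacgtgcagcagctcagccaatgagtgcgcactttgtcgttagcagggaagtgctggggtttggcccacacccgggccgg
The Adh7 window held 1 match, CACGC, at position 13 when the start base is 1, and the Aldh3a2 window held 1, at -117. Both were part of a match to the longer form TNGCGTG, which contains the core. The Adh1 window held neither. The antioxidant response element, TGACNNNGC, was in none of these 3 windows. Over both strands, GCGTG was in 32.4% of the 32851 promoter windows of the table, TNGCGTG in 5.07% and TGACNNNGC in 12.4%. Among the 7 genes the longer form was also in the windows of Aldh9a1 (1 match, with 2 of the core and 1 antioxidant response element) and Aldh18a1 (1 match, with 3 of the core), and the core was in 1 of 2 Adh5 windows. None of these 3 genes was called under B[a]P. No window was used for Aldh3a1, Aldh2 or Aldh7a1. Since Aldh3a1 was not scanned, the windows cannot show whether matches go with a response to B[a]P, and this was not tested. A match describes the letters only, and the Adh7 window lies inside the annotated gene span, since RefSeq also has transcripts that begin upstream of it.

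Total counts ran from 20976045 to 37930720 per library. At passage 25 the libraries numbered 2 stood apart. Their 100 most abundant genes took 29.6 to 34.3% of counts, against 15.7 to 26.0% in those numbered 1 and 16.7 to 25.4% at passage 20, and 14776 to 15329 genes had a count, against 16049 to 17173 and 16350 to 17278. The log2 changes were therefore also fitted without these 6 libraries, a choice made after seeing the data. In that fit each group of passage 25 has 1 library, which is assumed to vary like the duplicates of passage 20. The genes tested in it numbered 14774. The summed level of 9 hepatocyte markers was 1643 to 8781 CPM (read counts scaled to library size), although 3 of them, Apoa1, Apob and Hnf4a, stayed below 1 CPM in every library. Summed levels were 403 to 1542 CPM for 7 stellate cell or fibroblast markers (Col1a2 and Lrat below 1 CPM everywhere), 471 to 2101 CPM for 6 cholangiocyte markers (Epcam below 1), 23.0 to 63.5 CPM for 6 macrophage markers (Ptprc and Clec4f below 1) and 0.0854 to 1.58 CPM for 5 endothelial markers.

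Aldh3a1 was higher after B[a]P in every growth history. In Cr(VI)-grown cells of passage 20 it stood at 243 and 263 CPM with B[a]P, against 28.2 and 53.8 CPM with DMSO. At passage 25 the Cr(VI)-grown cells had 352 and 1669 CPM with B[a]P, against 61.2 and 122.3 CPM with DMSO. Recovered cells had 498 and 1156 CPM with B[a]P, against 26.1 and 86.3 CPM with DMSO. The lowest of these 6 B[a]P libraries lay above the highest of the 6 DMSO libraries, while the B[a]P libraries of passage 25 differed widely between duplicates. Control-grown cells, whose response chose the gene, had 326 and 335 CPM with B[a]P against 29.6 and 29.0 CPM with DMSO at passage 20, and 745 and 1252 CPM with B[a]P against 48.8 and 86.7 CPM with DMSO at passage 25.

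Adh7 separated as fully, from a lower base. Cr(VI)-grown cells of passage 20 had 183 and 147 CPM of Adh7 with B[a]P, against 23.4 and 8.67 CPM with DMSO. At passage 25 they had 118.4 and 58.3 CPM with B[a]P, against 9.70 and 3.11 CPM with DMSO. Recovered cells had 241 and 62.0 CPM with B[a]P, against 31.0 and 4.17 CPM with DMSO. All 6 B[a]P libraries lay above all 6 DMSO libraries, with the recovered DMSO library numbered 1 the highest of those with DMSO. In control-grown cells Adh7 stood at 358 and 325 CPM with B[a]P against 26.1 and 26.2 CPM with DMSO at passage 20, and at 122.4 and 71.3 CPM with B[a]P against 13.6 and 6.57 CPM with DMSO at passage 25. The lowest count behind any Adh7 value was 51 reads.

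Aldh3a2, the neighbour and paralog of Aldh3a1, had higher values after B[a]P too, by a far smaller margin. Cr(VI)-grown cells of passage 20 had 102 and 94.9 CPM of Aldh3a2 with B[a]P, against 90.2 and 50.6 CPM with DMSO. At passage 25 they had 101 and 102 CPM with B[a]P, against 59.5 and 57.7 CPM with DMSO. Recovered cells had 144 and 94.3 CPM with B[a]P, against 91.7 and 61.7 CPM with DMSO. The 6 B[a]P libraries again lay above the 6 DMSO libraries, but the margin was narrow, 94.3 against 91.7 CPM. Control-grown cells had 133 and 121.7 CPM with B[a]P against 96.1 and 91.3 CPM with DMSO at passage 20, and 126 and 114 CPM with B[a]P against 74.0 and 62.9 CPM with DMSO at passage 25.

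**Figure D1:**
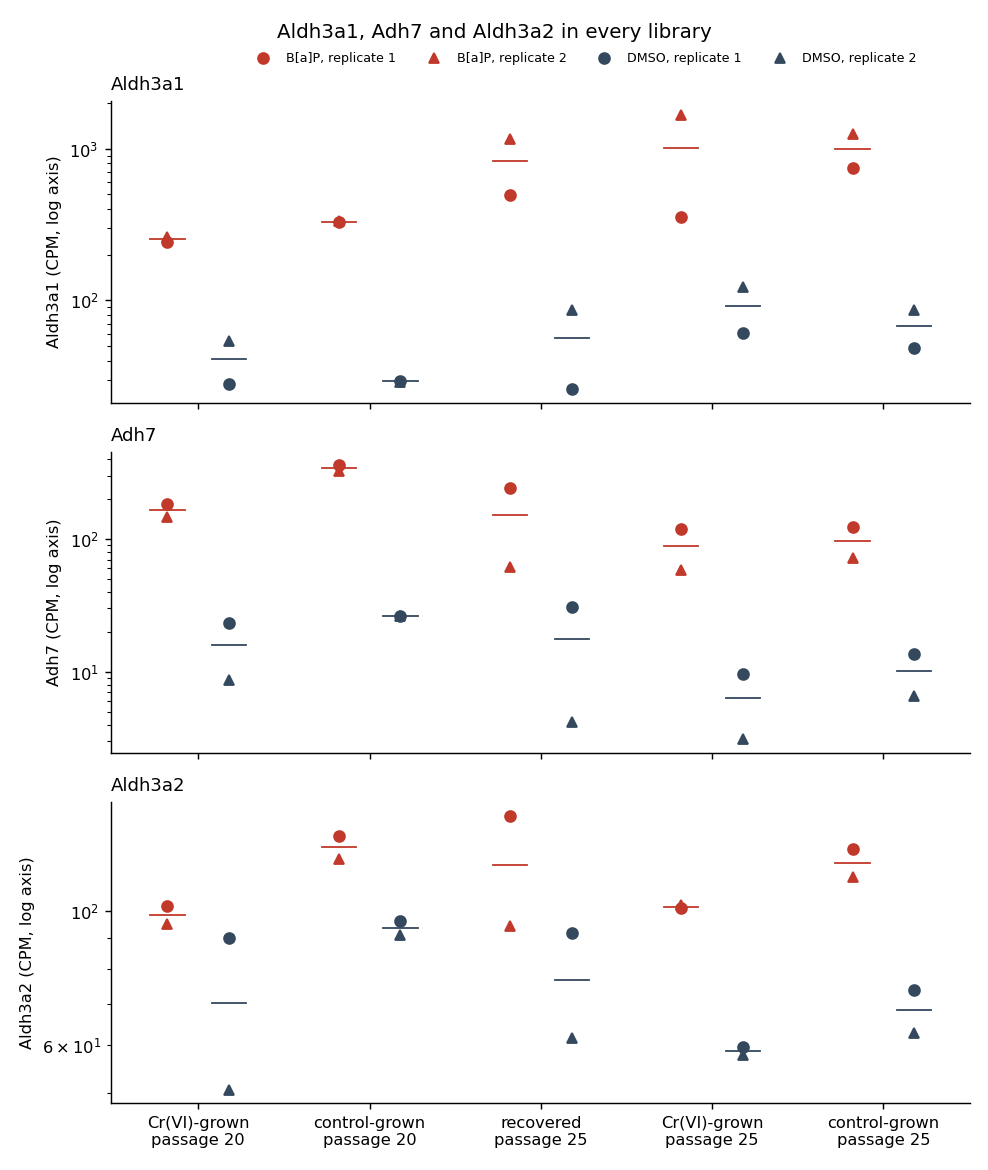
Level of Aldh3a1, Adh7 and Aldh3a2 in each of the 20 libraries, in CPM on a log axis, by growth history and passage with B[a]P left of DMSO. Circles are libraries numbered 1, triangles those numbered 2 and lines are group means. Aldh3a1, Adh7 and Aldh3a2 did not overlap between B[a]P and DMSO in any growth history. Over all 20 libraries Aldh3a2 did overlap, at 94.3 to 144 CPM with B[a]P and 50.6 to 96.1 CPM with DMSO.

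Over the Cr(VI) history, 2 of the 10 genes rose and none fell. Aldh3a1 rose 10.01-fold (log2 3.32 ± 0.45 SE, adjusted p = 0.00219) and Adh7 rose 10.7-fold (log2 3.42 ± 0.54 SE, adjusted p = 0.00498), from edgeR's quasi-likelihood test on the mean of 3 differences between B[a]P and DMSO, with Benjamini-Hochberg adjustment over all 14343 genes. In that test 1.22% of genes rose and 1.14% fell (175 and 163 genes, 2.36% in either direction). The log2 change of Aldh3a2 was 0.64 ± 0.18 SE, or 1.55-fold, with an adjusted p of 0.106. DESeq2, with no block, called it at about the same fold (adjusted p = 0.00452), among 795 of the 14343 genes. With the duplicate number as a block at passage 25, where the numbers paired the libraries, 15.2% of genes passed (7.91% rose and 7.3% fell) and Aldh3a2 was among them (adjusted p = 0.00702), beside Aldh3a1 (6.15e-07) and Adh7 (4.48e-06). Without the 6 libraries numbered 2 at passage 25, Aldh3a1 had a log2 change of 3.11, Adh7 one of 3.29 and Aldh3a2 one of 0.61. Leaving out the recovered DMSO library numbered 1 moved Adh7 furthest, to a log2 change of 4.11.

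The same-numbered libraries showed the spread of the change. Its direction was already fixed for Aldh3a1, Adh7 and Aldh3a2, since their groups did not overlap. At passage 20 the numbers do not pair libraries. Aldh3a1 was higher with B[a]P in 6 of 6 pairs of the Cr(VI) history, by 2.28 to 4.23 on the log2 scale (median 3.41). Adh7 was higher in 6 of 6, by 2.94 to 4.03 (median 3.64). Aldh3a2 was higher in 6 of 6, by 0.17 to 0.90 (median 0.70). Groups that did not overlap, with every B[a]P library higher, were found for 3 of the 10 genes in the 12 libraries of the Cr(VI) history, namely these, and for 0.718% of all genes tested. Over all 20 libraries it was Aldh3a1 and Adh7 alone among the 10, and 0.488% of all genes tested, a count that the choice of these 2 genes on the control-grown libraries fixes in part.

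Within single growth histories, with 2 libraries against 2, none of the 10 genes passed in edgeR without a block. The genes that passed made up 0.0418% of those tested in Cr(VI)-grown cells of passage 20, 0.0558% in Cr(VI)-grown cells of passage 25 and 0.0558% in recovered cells (6, 8 and 8 genes). Genes at an unadjusted p under 0.05 numbered 701, 829 and 526, and DESeq2 called 149, 151 and 103. Aldh3a1 (adjusted p of 0.0434, 0.00163 and 0.000122) and Adh7 (0.00653, 0.00177 and 0.0327) were among the genes that DESeq2 called in each of the 3. The log2 change of Aldh3a1 in those 3 settings was 2.63 ± 0.76, 3.46 ± 0.79 and 3.88 ± 0.80 (SE), with adjusted p of 0.418, 0.188 and 0.184. For Adh7 it was 3.36 ± 0.94, 3.78 ± 0.96 and 3.11 ± 0.93 (SE), with adjusted p of 0.374, 0.279 and 0.615. With the block at passage 25 both genes passed in all 3, at adjusted p of 0.000115 to 0.00193 for Aldh3a1 and 0.00138 to 0.00343 for Adh7, where 2.72%, 4.36% and 1.35% of all genes passed.

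**Figure D2:**
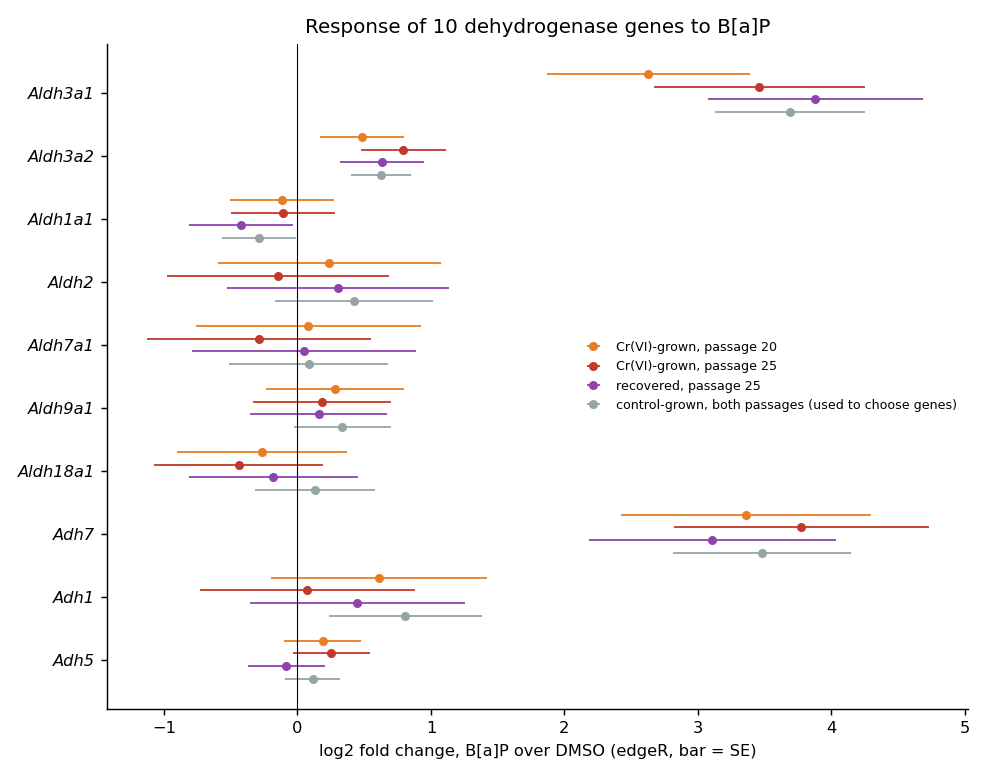
Log2 fold change of B[a]P over DMSO for the 10 genes in Cr(VI)-grown cells of passage 20, Cr(VI)-grown cells of passage 25, recovered cells and control-grown cells, each point with its standard error from the edgeR fit. Aldh3a1 lies between 2.63 and 3.88 and Adh7 between 3.11 and 3.78, apart from the other 8 genes.

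The fit gave control-grown cells a log2 change of 3.69 ± 0.56 (SE) for Aldh3a1, 3.48 ± 0.67 for Adh7, 0.63 ± 0.22 for Aldh3a2 and 0.81 ± 0.57 for Adh1, and values from -0.29 (Aldh1a1) to 0.42 (Aldh2) for the other 6. These are the values that chose the genes and carry no test. In that contrast 2.2% of all genes passed, or 15.3% with the block at passage 25.

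The gap between each induced gene and its relatives was tested as a ratio of CPM values within a library, which cancels what scales both genes alike. The levels of 2 genes are not compared by it, since transcript lengths differ, but its shift between treatments is. The log2 ratio of Aldh3a1 to Aldh3a2 was 1.25 to 4.02 in the 6 B[a]P libraries of the Cr(VI) history, against -1.79 to 1.08 in the 6 DMSO libraries. Its mean shift of 2.62, or 6.14-fold, had an exact permutation p of 0.00926 (two-sided, labels permuted within growth history and passage), the smallest p that the design allows, and 0.0139 after adjustment over the 3 ratios tested. The ratio of Adh7 to Adh5 lay at -1.08 to 0.79 with B[a]P, against -4.61 to -2.21 with DMSO, a shift of 3.41, or 10.6-fold (exact permutation p = 0.00926, adjusted 0.0139). Both ratios separated B[a]P from DMSO without overlap.

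Adh7 against Adh1 was less even. Its log2 ratio ran from -1.22 to 2.67 with B[a]P, against -4.66 to 0.58 with DMSO, so the groups overlapped. The mean shift was 3.27, or 9.65-fold (exact permutation p = 0.0185, adjusted 0.0185). It was 2.84 in Cr(VI)-grown cells of passage 20, 4.07 in those of passage 25 and 2.90 in recovered cells. The exact permutation p rose past 0.05 without the Cr(VI)-grown DMSO library numbered 2 of passage 25 (shift 2.87, p = 0.0556), the recovered B[a]P library numbered 1 (2.66, p = 0.0833) or the recovered DMSO library numbered 2 (2.53, p = 0.0741).

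The other 7 genes gave no call under B[a]P in the Cr(VI) history, with adjusted p of 0.910 to 0.999 in edgeR. Aldh1a1, the cytosolic enzyme that makes retinoic acid from retinaldehyde, had 416, 520 and 815 CPM as its lowest, median and highest B[a]P values, against 495, 662 and 938 CPM with DMSO. Its log2 change was -0.22 ± 0.22 SE, and it was higher with B[a]P in 2 of 6 pairs. Aldh2, the mitochondrial enzyme that clears acetaldehyde after ethanol, had 220.0, 386 and 1283 CPM with B[a]P, against 288, 408 and 969 CPM with DMSO, and a log2 change of 0.13 ± 0.48 SE. The ranges overlapped for both genes. The lowest and highest B[a]P values of Aldh2 and its highest DMSO value came from passage 25.

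Aldh7a1, which acts in lysine breakdown, had a log2 change of -0.052 ± 0.49 SE, with 132, 242 and 769 CPM as its lowest, median and highest B[a]P values against 170, 307 and 700 CPM with DMSO. Aldh9a1, which makes a precursor of carnitine, had a log2 change of 0.21 ± 0.30 SE, with 58.3, 98.8 and 172 CPM with B[a]P against 71.4, 85.9 and 151 CPM with DMSO. Aldh18a1 differs in kind, since it reduces glutamate on the way to proline. Its log2 change was -0.30 ± 0.37 SE, and it was higher with B[a]P in 1 of 6 pairs.

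Of the alcohol dehydrogenases, Adh1, the class I enzyme of hepatic ethanol oxidation, had 23.5, 38.8 and 146 CPM as its lowest, median and highest B[a]P values against 15.5, 40.02 and 107 CPM with DMSO. It was higher with B[a]P in 5 of 6 pairs, with a log2 change of 0.38 ± 0.47 SE, and the exception was the Cr(VI)-grown pair numbered 1 of passage 25 (23.5 CPM with B[a]P against 47.4 CPM with DMSO). Adh5, the class III enzyme that oxidises formaldehyde bound to glutathione, had a log2 change of 0.12 ± 0.17 SE, with 83.3, 131 and 162 CPM with B[a]P against 86.5, 112 and 162 CPM with DMSO. The standard error of Adh5 was the smallest of the 10 genes in this test. Without the 6 libraries numbered 2 at passage 25, the log2 change turned to -0.31 for Aldh2, -0.0037 for Aldh9a1, -0.0082 for Adh1 and -0.053 for Adh5, and was -0.50 for Aldh1a1, -0.44 for Aldh7a1 and -0.63 for Aldh18a1. No call was made for these 7 genes in that fit either, at adjusted p of 0.0673 to 0.994.

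Whether growth in Cr(VI) moved the genes was asked first without B[a]P. In Cr(VI)-grown against control-grown cells with DMSO, over both passages, none of the 10 genes and 0% of all genes passed in edgeR. An unadjusted p under 0.05 was found for 685 of the 14343 genes tested, no more than that threshold lets through by itself. DESeq2 called 13 genes and the block at passage 25 called 76 (0.53%), none of them among the 10. These comparisons share the control-grown libraries with the contrast that chose the genes. Aldh3a1 averaged 41.0 ± 18.1 CPM in Cr(VI)-grown cells and 29.3 ± 0.43 CPM in control-grown cells at passage 20 (SD, n = 2 each), and 91.8 ± 43.3 against 67.8 ± 26.8 CPM at passage 25, a log2 difference of 0.46 ± 0.51 SE. Adh7 averaged 16.0 ± 10.4 CPM in Cr(VI)-grown cells and 26.2 ± 0.087 CPM in control-grown cells at passage 20, and 6.40 ± 4.66 against 10.1 ± 4.96 CPM at passage 25, a log2 difference of -0.68 ± 0.61 SE. With the block at passage 25 the Adh7 difference was -0.74 ± 0.33 SE (adjusted p = 0.166) and that of Aldh3a1 0.44 ± 0.24 SE (adjusted p = 0.240). The 2 genes thus had differences of opposite sign, and Adh7 was lower in the Cr(VI)-grown library of each same-numbered pair, but neither gene passed in either fit. Without the 6 libraries numbered 2 at passage 25, the difference of Aldh2 was 0.59 ± 0.14 SE (adjusted p = 0.184), against 0.30 ± 0.59 SE with all libraries.

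With B[a]P, Cr(VI)-grown against control-grown cells again gave 0% of genes past the threshold in edgeR (523 had an unadjusted p below 0.05 and DESeq2 called 1). The largest difference among the 10 was that of Aldh18a1. It averaged 17.3 ± 2.95 CPM in Cr(VI)-grown cells and 31.0 ± 0.91 CPM in control-grown cells at passage 20, and 36.7 ± 28.5 against 73.0 ± 40.4 CPM at passage 25 (SD, n = 2 each). The log2 difference was -0.92 ± 0.45 SE, with an unadjusted p of 0.0625. Adh7 averaged 165 ± 25.6 CPM in Cr(VI)-grown cells and 342 ± 23.8 CPM in control-grown cells at passage 20, and 88.3 ± 42.5 against 96.9 ± 36.1 CPM at passage 25, a log2 difference over both passages of -0.59 ± 0.61 SE. For Aldh3a1 it was -0.18 ± 0.51 SE with all libraries and -0.75 ± 0.25 SE without the 6 libraries numbered 2 at passage 25 (unadjusted p = 0.0218, adjusted p = 0.194). In that fit the difference was -1.16 ± 0.20 SE for Aldh18a1 (adjusted p = 0.0827) and -0.57 ± 0.36 SE for Adh7, and negative for all 10 genes, none of which passed.

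Whether the B[a]P response itself differed with growth history was tested as an interaction. For Cr(VI)-grown against control-grown cells the log2 fold change differed by -0.65 ± 0.72 SE for Aldh3a1 and 0.086 ± 0.86 SE for Adh7. For recovered against control-grown cells it differed by -0.0013 ± 1.03 SE for Aldh3a1 and -0.15 ± 1.21 SE for Adh7. Genes chosen as high in control-grown cells are pulled to negative values in these 2 contrasts. Between passage 25 and passage 20 of Cr(VI)-grown cells, which does not use control libraries, it differed by 0.83 ± 1.02 SE for Aldh3a1 and 0.41 ± 1.21 SE for Adh7. In each of the 3 interactions 0% of genes passed in edgeR and 0 in DESeq2, with 60, 30 and 152 genes at an unadjusted p under 0.05. With the block at passage 25 the Aldh3a1 difference for Cr(VI)-grown against control-grown cells was -0.78 ± 0.34 SE (adjusted p = 0.577). Without the 6 libraries numbered 2 at passage 25 it was -1.19 ± 0.36 SE (unadjusted p = 0.0136, adjusted p = 0.174), and that of Adh7 was -0.0076 ± 0.51 SE. In the same fit the Aldh3a1 difference between passages turned to -0.23 ± 0.50 SE. None of the 10 genes passed in either of these fits, for any of the 3 interactions.

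Recovered cells were set against cells that stayed in Cr(VI) to passage 25. None of the 10 genes and 0% of all genes passed with DMSO (195 had an unadjusted p below 0.05 and DESeq2 called 0) or with B[a]P (248 and 0). Adh5 had 161 and 114 CPM in recovered cells with DMSO, against 87.1 and 86.5 CPM in Cr(VI)-grown cells, a log2 difference of 0.66 ± 0.29 SE with an unadjusted p of 0.0400 and an adjusted p of 1.00. Adh7 had a difference of 1.45 ± 0.88 SE with DMSO, with recovered duplicates at 31.0 and 4.17 CPM, against 9.70 and 3.11 CPM in Cr(VI)-grown cells, so that the groups overlapped. Aldh18a1 stood higher in recovered cells with both treatments, at 107 and 74.9 CPM against 33.9 and 65.6 CPM with DMSO and at 75.5 and 85.4 CPM against 16.5 and 56.8 CPM with B[a]P. Its log2 differences were 0.87 ± 0.64 and 1.13 ± 0.64 (SE). Recovered against control-grown cells gave 0% of genes past the threshold with DMSO and with B[a]P (146 and 142 had an unadjusted p below 0.05 and DESeq2 called 0 in each), and Aldh18a1 had a difference of 1.06 ± 0.64 SE with DMSO and of 0.14 ± 0.63 SE with B[a]P. Without the 6 libraries numbered 2 at passage 25, the Aldh18a1 differences of recovered cells were larger. They were 1.56 with DMSO and 2.16 with B[a]P against Cr(VI)-grown cells, and 2.502 with DMSO and 0.70 with B[a]P against control-grown cells. Each of these sets 1 library against 1, so no test is given for them. The Aldh18a1 duplicates differed by -0.52 to 1.85 on the log2 scale at passage 25, and by -0.57 to 0.0094 at passage 20.

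In Cr(VI)-grown cells with DMSO, passage 25 against passage 20 gave 0.383% of genes past the threshold (55 genes), none of the 10 among them. Passage cannot be told apart from the set in which the libraries were made. Adh1 had 47.4 and 90.8 CPM at passage 25, against 15.5 and 24.6 CPM at passage 20, a log2 difference of 1.79 ± 0.83 SE (adjusted p = 0.337, or 0.0606 with the block at passage 25, where 9.94% of all genes passed). Adh5 had 87.1 and 86.5 CPM at passage 25, against 110 and 162 CPM at passage 20, a log2 difference of -0.65 ± 0.29 SE with an unadjusted p of 0.0436. The differences of Adh1 and Adh5 had opposite signs. The differences of Aldh3a1 (1.16 ± 0.73 SE), Aldh18a1 (1.26 ± 0.64 SE) and Adh7 (-1.32 ± 0.88 SE) were below 2 standard errors. Without the 6 libraries numbered 2 at passage 25 the differences were 1.37 ± 0.29 SE for Adh1 (adjusted p = 0.0506), -0.51 ± 0.25 SE for Adh5, 0.71 ± 0.35 SE for Aldh3a1, 0.84 ± 0.27 SE for Aldh18a1 and -0.59 ± 0.52 SE for Adh7, and none passed.

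The duplicates of passage 25 differed from each other in a gene-by-gene way that crossed treatments and growth histories. The libraries numbered 2 were higher than those numbered 1 in 6 of 6 groups for Aldh3a1, Aldh1a1, Aldh2, Aldh7a1, Aldh9a1 and Adh1, as were 33.8% of all genes tested. The median log2 difference was 1.69 for Aldh2 and for Adh1, 1.66 for Aldh7a1 and 1.11 for Aldh3a1. Adh7 went the other way, lower in 6 of 6 groups by 0.78 to 2.87 on the log2 scale, as were 36.9% of all genes. Aldh3a2 and Adh5 were higher in 1 of 6 groups each, with medians of -0.19 and -0.13, near the -0.099 of all genes. Aldh3a1 and Adh7, both higher with B[a]P throughout, thus stood on opposite sides of this split. At passage 20 the Cr(VI)-grown DMSO duplicates differed in the same sense, by 0.93 for Aldh3a1 and -1.43 for Adh7, while the control-grown duplicates differed by at most 0.14 on the log2 scale for these 2 genes.

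**Figure D3:**
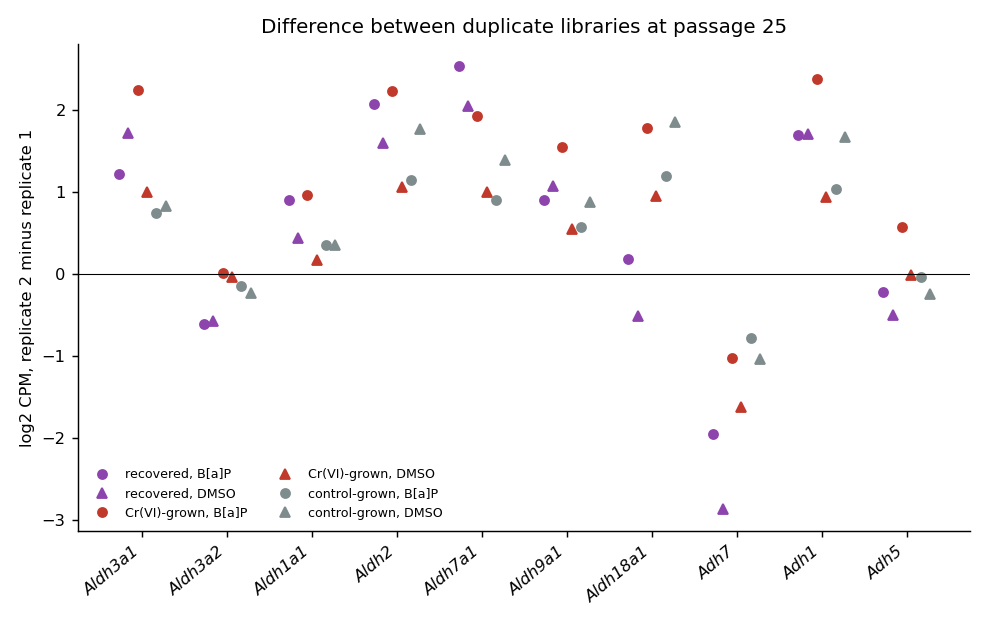
Log2 difference in CPM, library numbered 2 minus library numbered 1, for the 10 genes in the 6 groups of passage 25. Aldh3a1 lies above 0 in 6 of 6 groups and Adh7 below 0 in 6 of 6, with Aldh2, Aldh7a1 and Adh1 highest at medians of 1.66 to 1.69.

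Across all 20 libraries, as a description in which points share treatment and library number, the log2 CPM of Aldh2 had a Pearson correlation of 0.95 with Aldh7a1, 0.95 with Adh1 and 0.85 with Aldh9a1. Aldh3a1 and Adh7 had one of 0.58, and Adh7 one of 0.91 with Aldh3a2. By the same measure the 5 genes most like Aldh3a1 were Selenbp2 (0.989), Selenbp1 (0.988), Cyp2s1 (0.972), Tnfaip2 (0.966) and Entpd2 (0.944). Those most like Adh7 were Gcc1 (0.969), Entpd5 (0.947), Cldnd1 (0.947), Fos (0.947) and Txnrd1 (0.946). Log2 changes with B[a]P in the Cr(VI) history were 2.07 to 4.39 for the genes most like Aldh3a1 and 0.95 to 1.71 for those most like Adh7. Their positive sign is largely fixed by the choice, since the same libraries gave the correlations.

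Levels of different genes were compared as CPM per kilobase of exon. In the 10 DMSO libraries the medians ran in the order Aldh1a1 (141), Aldh2 (66.7), Aldh7a1 (48.6), Aldh9a1 (27.02), Aldh3a1 (26.4), Adh5 (21.3), Adh1 (14.2), Aldh3a2 (12.2), Aldh18a1 (10.6) and Adh7 (3.07). Each gene's range over libraries overlapped that of its neighbour in this order. In the 10 B[a]P libraries the median of Aldh3a1 was 219 CPM per kilobase, above the 108 of Aldh1a1, and that of Adh7 was 35.6. Aldh3a1 was first of the 10 genes in 10 of 10 B[a]P libraries, and between rank 4 and rank 9 with DMSO. Adh7 ranked between 3 and 10 with B[a]P (median 5), and 9 or 10 with DMSO. These ranks and medians include the control-grown libraries that chose Aldh3a1 and Adh7, which fixes them in part. In the B[a]P libraries of the Cr(VI) history alone the medians were 219 for Aldh3a1 and 35.1 for Adh7.

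**Figure D4:**
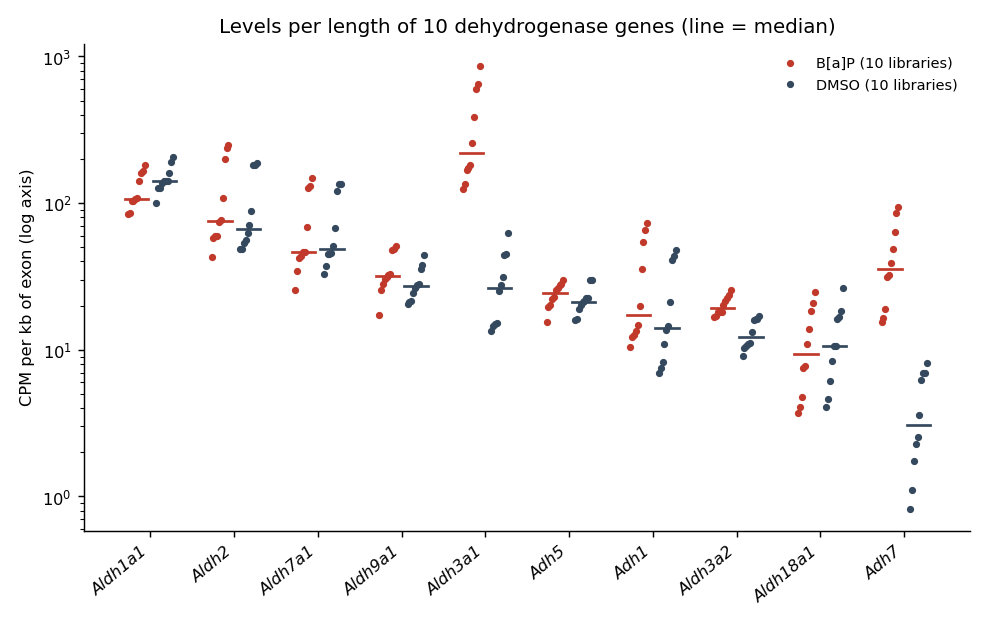
Level of the 10 genes in CPM per kilobase of exon in the 10 B[a]P and the 10 DMSO libraries, on a log axis, with a line at each median. Aldh3a1 has medians of 219 with B[a]P and 26.4 with DMSO, and Adh7 has 35.6 and 3.07. The other 8 genes have medians of 9.35 to 108 with B[a]P and of 10.6 to 141 with DMSO. The control-grown libraries that chose Aldh3a1 and Adh7 are included.

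The wider family was read from lists chosen with earlier results of these data known. Of 14 other aldehyde dehydrogenase genes 10 were tested and none rose or fell with B[a]P in the Cr(VI) history (median log2 change 0.011, against 0.022 over all genes tested and 0.17 over the 10 genes above). Of 5 other alcohol dehydrogenase genes 2 were tested, Adhfe1 (0.37) and Sord (0.17), and neither passed. Of 29 genes listed as carbonyl reductases, 26 were tested and none passed (median 0.097). Carbonyl reductases turn aldehydes and ketones back to alcohols, but the list also holds retinol dehydrogenases such as Rdh10. With the block at passage 25, Aldh6a1 of valine breakdown rose (log2 1.08 ± 0.39 SE in the fit without it, adjusted p = 0.240 without and 0.0138 with the block), as did Akr1b10 (0.0339) and the retinal reductase Rdh12 (0.0221), and the retinol dehydrogenase Rdh10 fell (log2 -0.83 ± 0.21 SE, adjusted p = 0.0629 without and 0.00710 with the block). These 4 were picked out after their values were seen, and 4 of the 38 list genes tested is below the 15.2% of all genes that passed in that fit. Levels were low for Rdh12 (0.390 to 1.90 CPM) and Aldh6a1 (0.664 to 6.07 CPM).

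Genes of the Ah gene battery other than Aldh3a1 rose in 7 of 7 tested, of 8 listed, with a median log2 change of 2.69. Of all genes tested, 1.22% rose. This list and the NRF2 list below were chosen with earlier results of these data known. Cyp1a1, the cytochrome P450 that oxidises B[a]P, rose most (5.36 ± 0.29 SE, adjusted p = 7.79e-07), followed by the quinone reductase Nqo1 (3.52 ± 0.19 SE), Tiparp (2.72), Cyp1a2 (2.69), Cyp1b1 (2.56) and the glutathione transferase Gsta1 (1.85). Ugt1a6a rose least (0.89). Gsta1 stayed at 0.169 to 5.11 CPM in all libraries. The edgeR adjusted p was near the threshold for Gsta1 (0.0476), Ugt1a6a (0.0484) and Tiparp (0.0490). The log2 changes of Aldh3a1 and Adh7, 3.32 and 3.42, lay between those of Cyp1a1 and Tiparp. Of 10 targets of NRF2, the factor that answers electrophiles and to which Nqo1 also responds, 6 rose and none fell (median 1.28), among them Hmox1 (2.62), Osgin1 (1.92), Srxn1 (1.68) and Gclc (1.62). In Cr(VI)-grown against control-grown cells with DMSO, none of the genes tested in these 5 lists passed.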

How the data were processed

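The deposited table holds raw read counts per Entrez gene ID, 1 column per library, which the values show to be without normalization. Per the submitters' processing notes, bcl2fastq, CASAVA 1.8, TopHat and DESeq were used with build mm10; for the counting program, its annotation and strand, nothing is given in the sources used here. Of 23373 IDs, 23275 were matched to a symbol. Genes were kept by edgeR's filterByExpr (14343 genes) and fitted with edgeR 4.0.16 in R 4.3.3 (TMM scaling, quasi-likelihood test, 1 mean per group, all 20 libraries, 10 residual degrees of freedom, common dispersion 0.228), with Benjamini-Hochberg adjustment over all genes tested and a threshold of 0.05. CPM values are scaled by TMM library sizes. Ratios used CPM plus 0.5 and an exact permutation test over libraries (Python 3.11.15, SciPy 1.17.1). Alternatives were DESeq2 1.42.0, RLE scaling, no count filter, other pseudocounts, a replicate block and leaving out each library. The code was tested on simulated data. The count of 2 libraries per group limits the precision of every value.

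Deviations from group means of same-numbered libraries correlated at 0.81 to 0.92 in all 15 pairs of groups at passage 25, so the numbers pair libraries there. At passage 20 the 6 pairs of groups gave -0.0019 to 0.59, highest between the Cr(VI)-grown B[a]P and DMSO groups, so pairing there is uncertain. The block at passage 25 only is therefore given beside results it changes. With it the common dispersion was 0.053.

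All 10 genes are named; of the lists, the 10 genes with the largest change among those past the threshold; and for Aldh3a1 and Adh7, the 5 genes with the highest correlation. Ugt1a6a was named besides these, after its value was seen. The members and lists were chosen with earlier results of these data known. Gene positions, exon lengths and promoters are from GRCm38.p6 annotation.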

Additional observations from a re-analysis of the deposited data

How the results depend on the processing

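The direction of Aldh3a1 and Adh7 and their place past the threshold over the Cr(VI) history held under the 6 other fits and the 12 fits without 1 library. With 1 library left out, their log2 changes were 2.82 to 3.69 and 2.98 to 4.11, and 2 to 3 of the 10 genes passed, the third being Aldh3a2 without the Cr(VI)-grown DMSO library numbered 1 of passage 20 (adjusted p = 0.0402). RLE scaling moved the median of all genes by at most 0.084 on the log2 scale.

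Counts of genes past the threshold depended on the fit, and the cause was not tested. For B[a]P over the Cr(VI) history, 338 genes became 2413 with a replicate block throughout, 2182 with the block at passage 25, 795 with DESeq2, 926 with only 1 library per group at passage 25, and 141 to 314 with 1 library left out. In Cr(VI)-grown cells of passage 20, 6 became 437, 390, 149, 204 and 0 to 13, and 2 without the count filter. In Cr(VI)-grown cells of passage 25, 8 became 782, 626, 151, 306 and 2 to 7. In recovered cells, 8 became 215, 193, 103, 4 and 0 to 5. In each of these 3, Aldh3a1 and Adh7 passed with either block and with DESeq2, so 0 of the 10 genes became 2. With 1 library per group at passage 25 it was 2 in Cr(VI)-grown cells of passage 20 and 1, Aldh3a1, in those of passage 25. In Cr(VI)-grown against control-grown cells, 0 became 531, 76 and 13 with DMSO (both blocks and DESeq2) and 1 with B[a]P (DESeq2). For passage 25 against passage 20, 55 became 1342, 1425, 538, 710 and 3 to 48, and 12 without the count filter, and 1 of the 10 genes, Adh1, passed with the block throughout (log2 1.13 ± 0.31 SE, adjusted p = 0.0396). The blocks changed no other call on the 10 genes beyond Aldh3a2, given in the text.

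With 1 library left out, the shift of Aldh3a1 over Aldh3a2 was 2.24 to 3.00, that of Adh7 over Adh5 3.03 to 3.79 and that of Adh7 over Adh1 2.53 to 4.01. In edgeR without a block, log2 changes of up to 3.88 among the 10 genes were not called in a single growth history.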
